A study of Mus musculus with 4 samples.

Results

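Granins and prohormone processing genes were followed across fetal mouse brain after maternal ethanol. The granins were Scg2, Chgb, Chga, Vgf and Scg3, and the processing genes were Scg5, Pcsk1, Pcsk2 and Cpe. They were chosen by gene symbol, with every probe set that the array's annotation gives to that symbol alone. Of the 9 genes, 8 had a probe set, with 1 probe set each, among 19938 genes so named. Pcsk2 had none under its own symbol and was not analysed here. The genes were picked with earlier values of these same arrays in view, among them the ethanol difference of Scg2 in hippocampus and the array on which it read low. The values of all 8 genes are therefore a description, with no test.

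RNA came from the tissues labelled hippocampus and forebrain of C57BL/6J embryos, on Affymetrix mouse gene arrays. The 4 groups were hippocampus after ethanol, hippocampus after PBS (phosphate-buffered saline), forebrain after ethanol and forebrain after PBS, with 1 array each. Dams received 2.9 g ethanol per kg per day as a 15% solution, or PBS, into the stomach for 5 days, starting on embryonic day 8 and ending on day 12, and all embryos were taken on day 18. The labels name no litter and no pooling of embryos, so a difference between litters or array runs cannot be told apart from one of treatment. With 1 array per group there is no replicate error, and neighbouring levels in any order below cannot be called different or alike. In bulk tissue, fewer cells of a type and less RNA per cell cannot be told apart either.

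Medians of the log2 signal were 7.11 to 7.13 when every probe set of an array was counted. Over the 11013 genes whose mean reached 7.11, called kept genes, the median was 8.57 on the hippocampus ethanol array and 8.66 to 8.68 on the other 3. Of 11 kept markers of hippocampal fields, 4 were higher and 7 lower in hippocampus than in forebrain after each treatment. Their medians were -0.13 after ethanol and -0.05 after PBS. Of all kept genes, 30.4% were higher after ethanol and 52.4% after PBS, with medians of -0.06 and 0.01. Zbtb20 was higher in hippocampus after both, by 0.23 after ethanol and 0.35 after PBS. Nrp2 went the other way, at -0.48 after ethanol and -0.85 after PBS. By count and median, these markers do not set the tissue labelled hippocampus apart. Markers of pituitary endocrine cells, which are rich in granins, read low throughout. None of the 7 with a probe set was kept, and the highest of their means was 6.75.

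Granins are acidic proteins stored in the dense-core granules of neurons and endocrine cells, where they help the granule form and are also cut into peptides. Prohormone convertases cut precursors at pairs of basic amino acids, carboxypeptidase E then trims the exposed basic residues, and the mature peptides are released when the cell is stimulated. Several genes of this system are known targets of cyclic AMP signalling through a short promoter element.

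That element was looked for in the promoters, because granin genes are a standard example of it, with the values below already known. RefSeq promoter windows of build GRCm38.p6, running from 250 bases before to 50 bases after the gene start, were at hand for 7 of the 9 genes. The full motif TGACGTCA, which reads the same on both strands, occurred in Scg2, Chgb and Pcsk1. It begins 68, 72 and 78 bases before their gene starts. Its shorter form TGACG, searched on both strands and contained in the full motif, occurred in all 7 windows. The other 4 windows, of Chga, Scg3, Scg5 and Pcsk2, held only the shorter form. Of 32851 mouse promoter windows of the same 300 bases, 1.79% held the full motif and 20.8% the shorter form. Vgf and Cpe were not among the windows used here. The 120 bases before the gene start are given for the 3 genes with the full motif and, beside them, for Chga with the shorter form. They are written 5′ to 3′ on the gene's strand with motif letters in capitals. The windows are chr1:79440027-79440146 on the minus strand for Scg2, and on the plus strand chr2:132781522-132781641 for Chgb, chr13:75089737-75089856 for Pcsk1 and chr12:102554821-102554940 for Chga.
Scg2: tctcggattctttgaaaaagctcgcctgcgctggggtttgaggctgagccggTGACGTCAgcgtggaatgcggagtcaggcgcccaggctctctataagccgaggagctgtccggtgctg
Chgb: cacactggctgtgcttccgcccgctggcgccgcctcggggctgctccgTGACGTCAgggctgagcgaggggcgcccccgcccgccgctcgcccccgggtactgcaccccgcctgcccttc
Pcsk1: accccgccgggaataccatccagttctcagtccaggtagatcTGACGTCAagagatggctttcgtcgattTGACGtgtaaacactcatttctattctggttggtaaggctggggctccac
Chga: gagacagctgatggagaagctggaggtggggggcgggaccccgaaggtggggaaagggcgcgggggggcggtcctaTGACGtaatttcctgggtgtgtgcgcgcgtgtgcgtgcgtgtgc

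**Figure D1:**
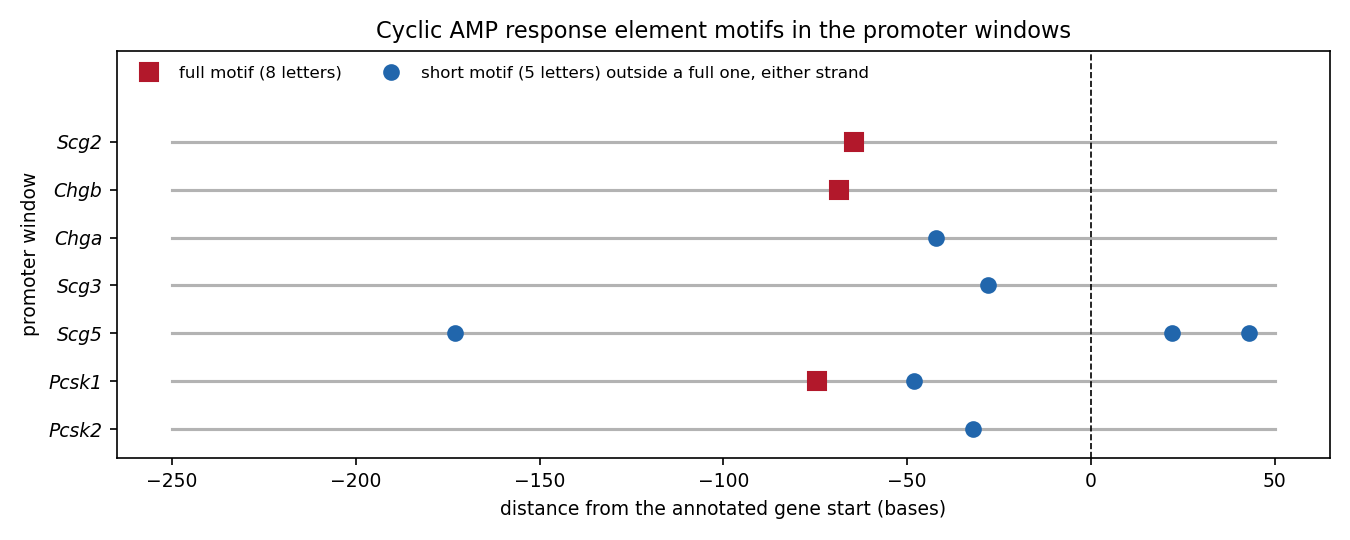
Positions of the full motif (squares) and of the shorter form outside it (circles) in the promoter windows of 7 genes, in bases from the annotated gene start. Scg2, Chgb and Pcsk1 carry the full motif 68, 72 and 78 bases before the start, and the windows of the other 4 genes hold only the shorter form.

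Among the granins, Scg2 varied most. Scg2 encodes secretogranin II, the precursor of the peptide secretoneurin. It read 8.59 on the hippocampus ethanol array and 7.64 on the hippocampus PBS array, and 8.77 and 8.70 on the forebrain arrays after ethanol and PBS. The hippocampus PBS array alone was low, and the other 3 lay within 0.18 of each other. The hippocampus ethanol difference was 0.95, a 1.94-fold ratio, with 7 of 11013 kept genes higher, whereas the forebrain ethanol difference was 0.07. After PBS, hippocampus differed from forebrain by -1.06, and after ethanol by -0.18. The hippocampus ethanol difference and the tissue difference after PBS share the hippocampus PBS array, so they are not separate evidence that it was low.

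Vgf, which encodes a neurotrophin-inducible granin-like precursor of several peptides, had the same order of arrays with smaller steps. Its readings were 7.28 and 6.94 in hippocampus after ethanol and PBS, and 7.54 and 7.44 in forebrain after ethanol and PBS. The lowest value was again that of the hippocampus PBS array, below the level of 7.11 used as a filter on gene means. The ethanol difference was 0.34 in hippocampus and 0.10 in forebrain.

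Chgb, the gene of chromogranin B, repeated this order once more. It read 8.56 and 8.37 in hippocampus after ethanol and PBS, and 8.73 and 8.71 in forebrain after ethanol and PBS. Both hippocampus arrays lay below both forebrain arrays, at a difference of -0.17 after ethanol and -0.34 after PBS. The ethanol difference was 0.18 in hippocampus and 0.01 in forebrain.

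The remaining granins had narrower ranges over the arrays. Chga, the gene of chromogranin A, which drives granule formation in endocrine cells, read 8.77 and 8.75 in hippocampus after ethanol and PBS, and 8.91 and 8.77 in forebrain after ethanol and PBS. Its forebrain ethanol difference of 0.13 was the highest among the 8 genes in that tissue, while the hippocampus difference was 0.03. Scg3 encodes secretogranin III, which binds chromogranin A and anchors it to the granule membrane. It read 10.36 and 10.32 in hippocampus and 10.33 and 10.24 in forebrain, each after ethanol and PBS, so that its whole range was 0.12. Chga too was lowest on the hippocampus PBS array, at a difference of -0.03 from forebrain after PBS, while Scg3 was not. Neither had a low reading there of the size that Scg2 showed.

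The processing genes each had a different pattern. Pcsk1 encodes prohormone convertase 1, which makes the early cuts in many precursors. It read 6.70 and 6.71 in hippocampus after ethanol and PBS, and 7.15 and 7.24 in forebrain after ethanol and PBS. Both hippocampus arrays lay below both forebrain arrays, at a difference of -0.45 after ethanol and -0.53 after PBS, and the ethanol differences were -0.02 in hippocampus and -0.09 in forebrain. Its mean of 6.95 was below the filter, so Pcsk1 is described here but is not among the kept genes, and 7 of the 8 measured genes are.

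Scg5 encodes 7B2, the chaperone that convertase 2 needs for its maturation. It had the narrowest range of all, 0.08, with 9.88 and 9.94 in hippocampus after ethanol and PBS and 9.90 and 9.86 in forebrain after ethanol and PBS. Cpe, the gene of carboxypeptidase E, read 11.58 and 11.31 in hippocampus and 11.50 and 11.41 in forebrain, again after ethanol and PBS. Its hippocampus PBS array was the lowest and its hippocampus ethanol array the highest, with ethanol differences of 0.27 in hippocampus and 0.09 in forebrain. Scg5 and Pcsk1 had the only negative hippocampus ethanol differences, -0.06 and -0.02, and both turned positive, at 0.04 and 0.08, when arrays were centred on their medians over kept genes, a setting added after the data were seen.

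**Figure D2:**
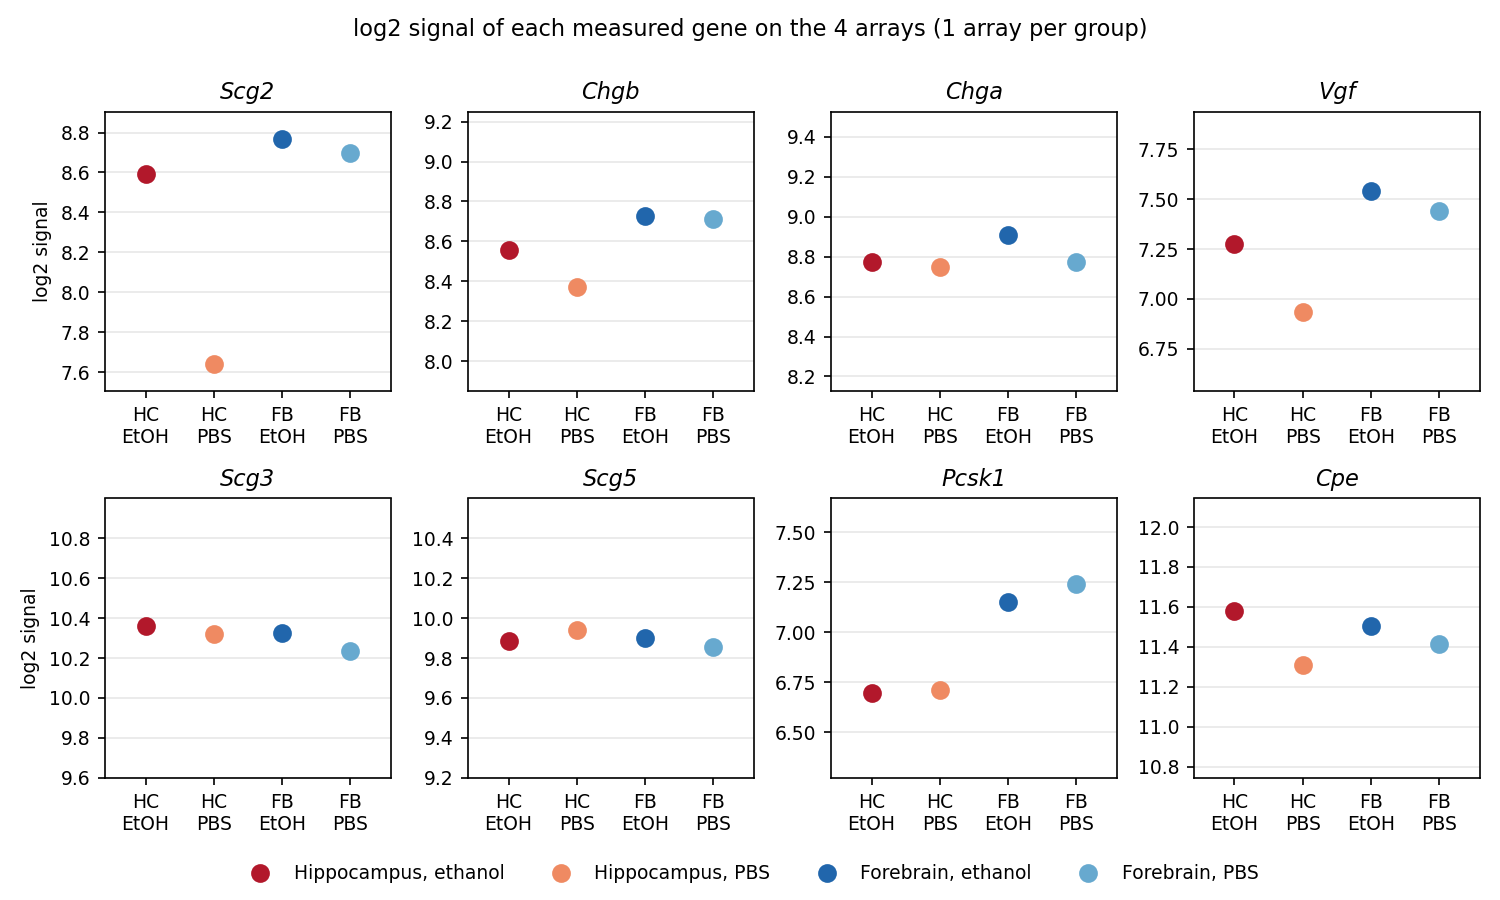
The log2 signal of each of the 8 measured genes on the 4 arrays, 1 point per array, for hippocampus (HC) and forebrain (FB) after ethanol (EtOH) and PBS. All panels span the same number of log2 units around their own midpoint. Scg2 shows the hippocampus PBS array at 7.64, apart from 8.59, 8.77 and 8.70 on the other 3, whereas Scg3 and Scg5 span 0.12 and 0.08.

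Set together, the ethanol differences in hippocampus were positive for 6 of the 8 genes, with a median of 0.11, while 30.7% of all kept genes were above 0, with a median of -0.08. At 1.5-fold, 1 gene, Scg2, was higher, where 0.49% of kept genes were, and 0 were lower, where 0.427% were. At a smaller mark of 0.32 on the log2 scale, Scg2 and Vgf were higher, with 3.17% of kept genes past it, and 0 lower, with 5.95%. Scg2 was short of 2-fold as deposited, a mark that 0.0545% of kept genes passed upward and 0.00908% downward. With quantile normalization its difference was 1.03 and with centring over kept genes 1.05, just past 2-fold. These counts describe a contrast that was known when the genes were chosen.

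In forebrain the ethanol differences were positive for 7 of the 8 genes, Pcsk1 being the exception, and their median was 0.08, while 46.1% of all kept genes were above 0, with a median of -0.01. All 8 lay between -0.09 and 0.13. None passed 0.32 in either direction, which 0.336% of kept genes did upward and 0.191% downward, and none passed 1.5-fold, where the shares were 0.0454% and 0.0272%. The standard deviation of the differences over kept genes was 0.187 in hippocampus and 0.0941 in forebrain. Scg2 had the widest gap between the tissues' ethanol differences, 0.88 for hippocampus minus forebrain, followed by Vgf at 0.24, Cpe at 0.18 and Chgb at 0.17. Chga at -0.11, Scg5 at -0.10 and Scg3 at -0.05 had gaps of the opposite sign, and Pcsk1 stood at 0.08. The design has no replicate with which these gaps could be tested.

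**Figure D3:**
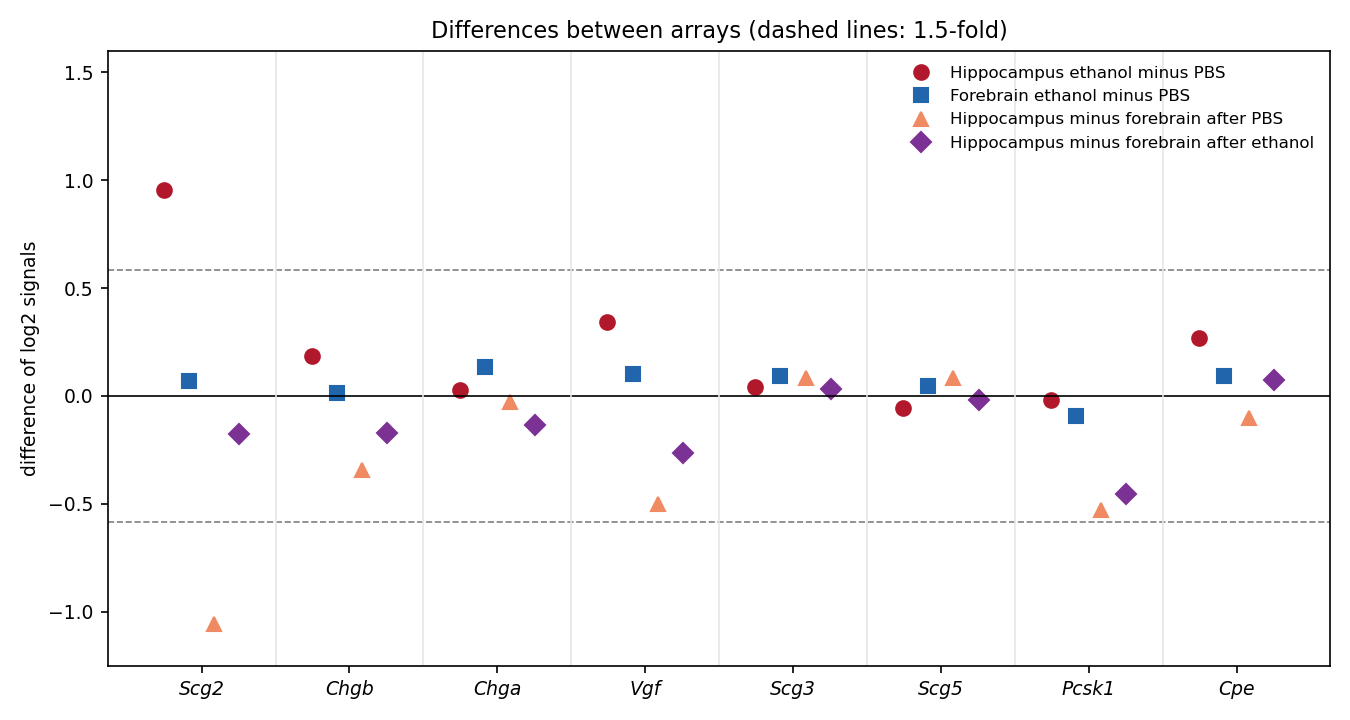
Differences of log2 signals for the 8 measured genes in 4 comparisons of single arrays, with dashed lines at 1.5-fold. Scg2 is past the lines for hippocampus ethanol minus PBS (0.95) and for hippocampus minus forebrain after PBS (-1.06), which share the hippocampus PBS array. Pcsk1 is lower in hippocampus after both treatments (-0.45 after ethanol, -0.53 after PBS).

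Between the tissues, 4 genes were lower in hippocampus than in forebrain by at least 0.32 on the log2 scale after PBS. They were Scg2, Pcsk1, Vgf and Chgb, at -1.06, -0.53, -0.50 and -0.34, with 4.57% of kept genes past that mark. None was higher by as much, as 1.53% of kept genes were. At 1.5-fold, only Scg2 was lower, with 1.19% of kept genes, and none was higher, with 0.0908%. The other 4 genes lay between -0.10 (Cpe) and 0.08 (Scg3 and Scg5). The promoter motif was searched with these values known, so its presence is no evidence on them, and Chgb lay just past the mark. The genes with the full motif, Scg2, Chgb and Pcsk1, had hippocampus ethanol differences of 0.95, 0.18 and -0.02. A link between the motif and the values was not tested.

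After ethanol the tissues were closer for most of these genes. Pcsk1 alone was lower in hippocampus by at least 0.32, at -0.45, with 5.48% of kept genes past that mark, and none was higher, with 1.2%. Vgf followed at -0.26, and Scg2 and Chgb stood at -0.18 and -0.17, next to Chga at -0.13. The median of the 8 genes was -0.15 after ethanol and -0.22 after PBS, against -0.06 and 0.01 over all kept genes. None passed 1.5-fold after ethanol, where 0.536% of kept genes were lower and 0.154% higher.

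A limma fit over all 4 arrays, with treatment and tissue as additive terms and Benjamini-Hochberg adjustment over 11013 genes, called 0 genes for ethanol (0% in each direction). The lowest adjusted p was 0.104, and 375 genes were higher and 700 lower at an unadjusted p under 0.05. For tissue limma called 12 genes higher in hippocampus (0.109%) and 112 lower (1.02%). The granin and processing genes were chosen with their values known, so no result of the fit is given for them. Only 1 residual degree of freedom remains in the fit, and it takes a response that differs between the tissues, such as that of Scg2, as error.

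The rest of the pathway was followed through lists of genes by role. Of 18 other processing enzymes and inhibitors, 13 were kept, and in hippocampus 7 were higher and 6 lower after ethanol, with a median of 0.04. Of all kept genes, 30.7% were higher in this comparison, with a median of -0.08. Pcsk5, a convertase of growth factor precursors, differed by -0.33, Pcsk4, a convertase known from testis, by 0.29, and Pcsk7, a widely expressed convertase, by -0.25. None of the 13 passed 1.5-fold in any of the 4 comparisons, and limma called 0 for ethanol (lowest adjusted p = 0.562, with 0 at an unadjusted p under 0.05). Of 3 more genes, chosen after their values were seen, Pcsk1n encodes proSAAS, an inhibitor of convertase 1. It read 9.50 and 9.26 in hippocampus after ethanol and PBS, and 9.72 and 9.72 in forebrain after ethanol and PBS, so its lowest reading was also on the hippocampus PBS array. Furin, the convertase of the constitutive pathway, differed by -0.05 in hippocampus and 0.03 in forebrain after ethanol, and Pam, which amidates peptides, by -0.10 and -0.04.

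Genes of granule trafficking and release had 23 of 29 members kept, with 14 higher and 9 lower in hippocampus after ethanol and a median of 0.06. Again, 30.7% of all kept genes were higher there, with a median of -0.08. Ptprn encodes a granule membrane protein of the receptor-type phosphatase family. It read 8.19 and 7.73 in hippocampus after ethanol and PBS, and 8.54 and 8.39 in forebrain after ethanol and PBS, an ethanol difference of 0.46 in hippocampus and 0.15 in forebrain. Baiap3, a regulator of dense-core granule maturation and release, read 7.20 and 6.78 in hippocampus and 7.43 and 7.39 in forebrain, each after ethanol and PBS. Like Scg2, both were lowest on the hippocampus PBS array, but the differences by which they were named use that array. The Baiap3 reading there, 6.78, was below the level of 7.11 used as a filter on gene means. Ptprn and Baiap3 were the 2 genes of this list past 1.5-fold between tissues after PBS, at -0.67 and -0.61. Rab2a, a small GTPase known from Caenorhabditis elegans to act in granule maturation, differed by 0.47 in hippocampus and 0.33 in forebrain after ethanol on the brighter of its probe sets, but by 0.06 and -0.01 on the other. Of the 23 genes, 18 were lower in hippocampus than in forebrain after PBS (median -0.09) and 19 after ethanol (median -0.17), where 47.5% and 69.6% of all kept genes were lower. Limma called 0 of them for ethanol (lowest adjusted p = 0.111, with 4 higher and 1 lower unadjusted) and 0 for tissue (lowest adjusted p = 0.0518, with 0 higher and 7 lower unadjusted).

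Of 40 neuropeptide and prohormone precursors, the cargo of these granules, 15 were kept. Among them, 3 were at least 1.5-fold higher in hippocampus after ethanol, where 0.49% of all kept genes were. The substance P precursor gene Tac1 read 9.12 and 8.46 in hippocampus after ethanol and PBS, and 8.40 and 8.38 in forebrain after ethanol and PBS. Here the hippocampus ethanol array alone was high, unlike the pattern of Scg2. Somatostatin (Sst) read 9.73 and 9.10 in hippocampus and 9.90 and 10.07 in forebrain, with the hippocampus PBS array alone low, as for Scg2. The enkephalin precursor gene Penk read 9.43 and 8.81 in hippocampus and 9.11 and 9.04 in forebrain, with the hippocampus arrays at both ends. Tac1, Sst and Penk were named by differences that use the hippocampus PBS array. The list's median ethanol difference was 0.10 in hippocampus and 0.03 in forebrain, against -0.08 and -0.01 over all kept genes. The neurotensin precursor gene Nts was higher in hippocampus than in forebrain by 0.46 in the limma fit (SE 0.0701, adjusted p = 0.0394). This call rests on 1 residual degree of freedom, and the list was chosen with earlier results of these data known. The number of genes called for tissue ran from 27 to 416 between settings. For ethanol limma called 0 of the list (lowest adjusted p = 0.510, with 3 higher and 1 lower unadjusted).

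**Figure D4:**
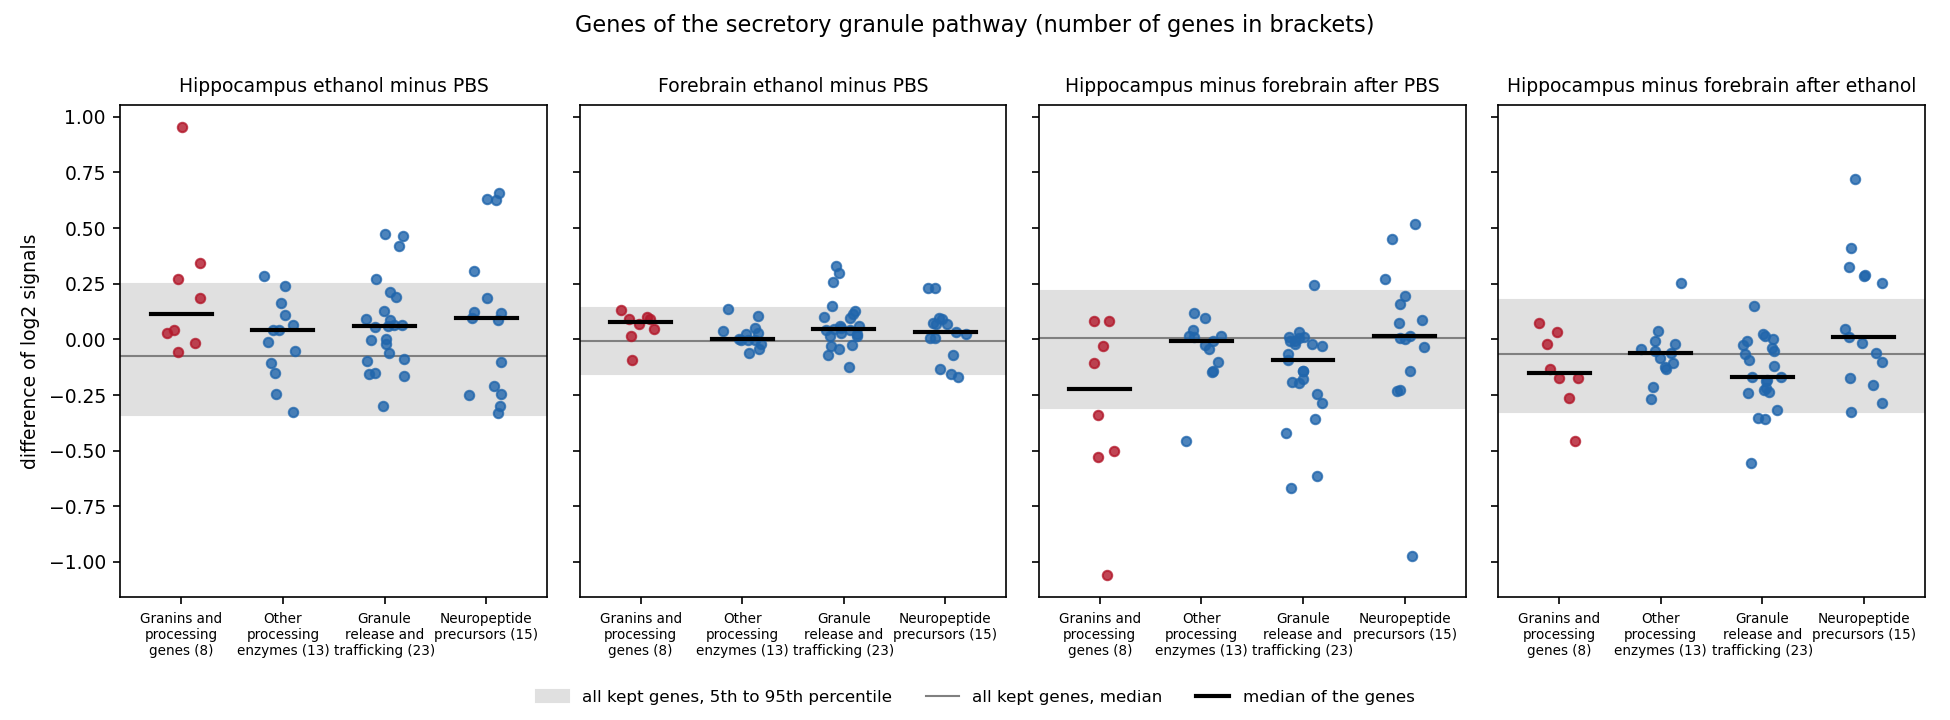
Differences of log2 signals in 4 comparisons for the 8 granin and processing genes (red, Pcsk1 included although it was below the filter) and for kept genes of 3 pathway lists (blue), 1 point per gene, with black bars at medians. The grey band holds the central part of all kept genes, from the 5th to the 95th percentile, and the grey line their median. The 8 genes have medians of 0.11, 0.08, -0.22 and -0.15 from left to right, against -0.08, -0.01, 0.01 and -0.06 over all kept genes.

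Markers of several cell types also differed between these arrays. The mean log2 signal of 8 meningeal fibroblast markers was 8.25 and 7.81 in hippocampus after ethanol and PBS, and 8.83 and 8.99 in forebrain after ethanol and PBS. All 8 were higher in hippocampus after ethanol (median 0.44). All 8 were also over 1.5-fold lower in hippocampus than in forebrain after PBS (median -1.12), where 1.19% of kept genes were. GABAergic interneuron markers were higher in hippocampus after ethanol for 10 of 12 (median 0.24), thalamic and hypothalamic markers for 8 of 9 (median 0.23), striatal projection neuron markers for 12 of 12 (median 0.37) and astrocyte markers for 7 of 8 (median 0.28), whereas choroid plexus markers were lower for 7 of 7 (median -0.32). General neuronal markers were higher for 6 of 12, with a median of 0.00. These counts stand beside 30.7% of all kept genes above 0 in this comparison and a median of -0.08. In forebrain after ethanol, meningeal markers were higher for 1 of 8, interneuron markers for 4 of 12 and striatal markers for 3 of 12. Thalamic and hypothalamic markers were higher there for 7 of 9, astrocyte for 7 of 8, choroid plexus for 5 of 7 and general neuronal for 10 of 12. Of all kept genes, 46.1% were above 0 in forebrain. Between the tissues, choroid plexus markers were higher in hippocampus than in forebrain for 4 of 7 after ethanol (median 0.03) and 7 of 7 after PBS (median 0.42). Striatal markers were so for 12 of 12 after ethanol (median 0.52) and 8 of 12 after PBS (median 0.14). Interneuron markers were so for 8 of 12 after ethanol and 3 of 12 after PBS, and thalamic and hypothalamic markers for 2 of 9 after each. Astrocyte markers were so for 3 of 8 after ethanol and 1 of 8 after PBS, and general neuronal markers for 0 of 12 and 3 of 12. Of all kept genes, 30.4% were higher in hippocampus than in forebrain after ethanol and 52.4% after PBS. The mean of the neuronal markers was 10.42 and 10.35 in hippocampus and 10.58 and 10.49 in forebrain, each after ethanol and PBS. Some genes stand in more than 1 list, such as Sst and Calb2. The part of these cell types in the granin values was not tested.

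The kept genes whose 4 readings followed those of Scg2 most closely were Snhg11, Calb2, Spock3, Pcdh11x and Slc6a7. They were taken from 565 genes with a range of at least 0.5, by the root mean square difference of centred readings over the 4 arrays, which was 0.046 for Snhg11 and 0.087 for Slc6a7. Their hippocampus ethanol differences ran from 0.71 for Slc6a7 to 1.06 for Pcdh11x, and their tissue differences after PBS from -0.91 for Slc6a7 to -1.05 for Spock3. Among the other granin and processing genes the nearest to Scg2 was Vgf, at 0.25, and the farthest was Scg5, at 0.48. A likeness over 4 arrays rests mainly on the low hippocampus PBS reading that these genes share.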

How the data were processed

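The values are the authors' deposited log2 signals, 1 per probe set and array. MAS5 is named in the submitters' processing notes, and how background, summarization and normalization were done is not stated there. That the scale is log2 was inferred from the range of the signals, 1.58 to 13.96. No depth applies to arrays, whose number sets the precision.

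In the platform annotation 21789 of 35557 probe sets had 1 symbol, 1621 had several and 12147 had none. A gene was represented by its brightest probe set by mean, and was kept if that mean was at least 7.11, the median over probe sets. Groups come from the sample titles. Single arrays were compared by differences of log2 values, counted at 1.5-fold without a test. Kept genes were fitted with limma 3.58.1 (R 4.3.3), with a trend, called at an adjusted p of 0.05, and the fit was tested on simulated data. Other steps used Python 3.11.15, with pandas 2.3.3, numpy 2.4.6 and, for figures, matplotlib 3.10.9. The genes and lists were chosen with earlier results of these data known. From each pathway list the text names the 3 kept genes with the largest absolute hippocampus ethanol difference, those past 1.5-fold in any comparison and those called by limma; Pcsk1n, Furin and Pam were chosen after their values were seen. Alternatives were scaling, fold, filter, probe set choice and the trend.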

Additional observations from a re-analysis of the deposited data

Results flagged for a closer look

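Of 21 granin, processing and pathway genes named with values, 4 had ethanol differences of opposite sign in the tissues, each from 1 array per group. Scg5 differed by -0.057 in hippocampus and 0.046 in forebrain, and the hippocampus value turned to 0.042 with arrays centred over kept genes. Sst differed by 0.63 in hippocampus and -0.17 in forebrain, Pcsk1n by 0.24 and -0.0049, and Furin by -0.054 and 0.026. The same centring removes shifts of -0.074 and 0.025 from the hippocampus arrays after ethanol and PBS, and of 0.015 and 0.035 from the forebrain arrays. With it the forebrain value of Pcsk1n and the hippocampus value of Furin turn positive too. Of these 4 genes only Sst then keeps opposite signs. Pcsk1 gains opposite signs under this centring, at 0.083 in hippocampus and -0.072 in forebrain. So does Pcsk7, whose values as deposited were -0.25 in hippocampus and -0.0027 in forebrain. The count of 4 stands without a share over all kept genes, and Pcsk1n and Furin in it were chosen after their values were seen. None of these differences between the tissues was tested.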

How the results depend on the processing

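No paired analysis was possible because each group has 1 array and the titles carry no replicate number, and for the same reason no array could be left out. Of 32 differences of the 8 genes (4 comparisons), 28 kept their sign under array centring, quantile normalization, averaging of probe sets and the added centring over kept genes, and none of the 128 alternative values moved by more than 1 SD of the kept genes' differences. The exceptions were hippocampus ethanol minus PBS for Scg5 (-0.06 to 0.04) and Pcsk1 (-0.04 to 0.08), and hippocampus minus forebrain after ethanol for Scg5 (-0.02 to 0.07) and Cpe (-0.0023 to 0.16). Averaging probe sets changes nothing for genes with 1 probe set, and each centring shifts every gene of a comparison by the same amount, smaller than 1 SD. Only quantile normalization could therefore move single genes past that mark. Of the 8 genes, the number past the fold for hippocampus ethanol was 1 at 1.5-fold, 2 at the smaller mark of 0.32 on the log2 scale and 0 at 2-fold. Between tissues after PBS it was 4 at the smaller mark, against 1, and after ethanol 1, against 0.

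The kept genes past 1.5-fold numbered 101 for hippocampus ethanol, 8 for forebrain ethanol, 141 between tissues after PBS and 76 after ethanol. At 2-fold they were 7, 0, 28 and 5, without a filter 208, 46, 237 and 159, and with the 75th percentile filter 53, 2, 37 and 25. The split of higher and lower genes in hippocampus after ethanol was 54 and 47, but 23 and 30 with the 75th percentile filter, 131 and 77 without a filter, 88 and 31 with quantile normalization and 116 and 19 with centring over kept genes, which also gave 6 and 1 in forebrain, against 5 and 3, and 32 and 31 between tissues after ethanol, against 17 and 59. For ethanol limma called 0 genes, 14 with quantile normalization and 7 with the 75th percentile filter. For tissue limma called 124, against 190 with centred arrays, 416 with quantile normalization, 37 without a filter and 27 without a trend. Centring adds the same amount to every gene's difference in a comparison, and a filter alters which genes are counted. Beyond what these settings do by construction, the cause of these changes was not tested.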
